A study of Mus musculus with 4 samples.

Results

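Chemokines are small secreted proteins that direct the movement of leukocytes, and the cells that follow them carry chemokine receptors, a family of G protein-coupled receptors. The genes described here are the probe sets whose gene symbol starts with Ccl, Ccr, Cxcl, Cxcr, Xcl, Xcr, Cx3cl or Ackr followed by a digit, with Cx3cr1 left out. They are 60 of the 22206 gene probe sets on the array and carry 59 symbols, since Ccl21b has 2 probe sets. Of the 60, 24 measure CC ligands, 13 CXC ligands, 2 the ligands Cx3cl1 and Xcl1, 17 signalling receptors and 4 atypical receptors. Ligands are grouped by the spacing of their first cysteines, and the atypical receptors bind ligands and clear them without G protein signalling. In healthy brain most inflammatory chemokines are made at low levels, while Cx3cl1 is made by neurons and Cxcl12 by vessels, meninges and neurons.

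RNA came from the brain cortex of male mice of SAMP8, a strain with accelerated senescence. The TCQA group was dosed orally every day with 5 mg/kg of TCQA, named here as the labels abbreviate it, for 1 month from 11 months of age, and the control group was given MilliQ water over the same month. Earlier, from 7 months of age, mice of both groups had lived alone in their cages for 4 months. Each group had 2 arrays, and the labels do not say whether these came from separate mice, so a p-value here reflects only how much these arrays vary, and that variation may be technical.

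The values are log2 signals, in which a difference of 1 is a 2-fold change. The signal of a probe set is compared between arrays, and with that of other probe sets only to mark dim signals. The 4 arrays correlated across genes at 0.991 to 0.993. Some markers of cortical cells were well measured, with 11 of 11 excitatory neuron, 16 of 16 astrocyte and 11 of 11 oligodendrocyte genes above the median negative control probe set of every array. Fewer were above it for inhibitory neurons (10 of 12), microglia (13 of 19), endothelium (13 of 19) and pericytes and smooth muscle (4 of 12). The median negative control lay at 7.17 to 7.32 and serves here as a mark of dim signals. Among the chemokine genes 13 of the 60 (21.7%) were above it on all 4 arrays and 44 were below it on all 4, against 46.6% of all gene probe sets above it on all 4. Most chemokine values were therefore dim.

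In the TCQA group Cxcl13, the ligand that draws B cells into lymphoid follicles, was 4.12-fold higher than in the control group. The monocyte attractant Ccl12 and the interferon-inducible ligand Cxcl10 had means over 2-fold higher, with TCQA replicate 1 well above the other 3 arrays for both. The macrophage ligands Ccl6 and Ccl9 and the receptors Ccr9 and Cxcr4 were higher on both TCQA arrays than on either control array, and the atypical receptor Ackr1 and the neutrophil receptor Cxcr1 were lower on both. After Benjamini-Hochberg adjustment of the limma p-values over every gene probe set, 0 of 60 were called, as were 0 of 22206 (0%). The smallest adjusted p by limma was 0.787 among the 60 and 0.6975 among all gene probe sets. At an unadjusted p under 0.05 there were 9 of 60 (15%), 6 higher and 3 lower with TCQA, against a background of 6.24% of all gene probe sets, 3.38% higher and 2.86% lower. The negative control probe sets reached this p in 6.64% of cases, in a separate limma fit of the control probe sets with its own moderation. Of the 9, 7 lay below the median negative control on all arrays, where 430 of 10642 gene probe sets were higher and 342 lower at this p. With 1 array left out, between 2 and 5 of the 9 kept this p, Cxcl13 each time.

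The depositors called a gene at an unadjusted p under 0.05 if it also differed by more than 2-fold, and 1 of the 60, Cxcl13, met this criterion, against 0.374% of all gene probe sets. Of the 5222 negative control probe sets, 216 (4.14%) met it too, in their separate fit. The TCQA and control arrays did not overlap for 25 of the 60 (41.7%), against 36.6% of all gene probe sets. Of the 25, 15 were higher and 10 lower, against 18.9% higher and 17.8% lower among all. The 10 include Ccl21c and a Ccl21b probe set, which held identical values. The median difference over the 60 was 0.01, as over all gene probe sets (0.01). Ligands had a higher mean with TCQA in 25 of 39, receptors in 7 of 17 and atypical receptors in 0 of 4. Of all gene probe sets 51.1% had a higher mean with TCQA. These counts take in very small differences, such as 0.005 for Ccl20 and -0.002 for Ackr2. The highest array was TCQA replicate 1 for 22 genes (36.7%, against 26.4% of all gene probe sets) and the lowest was control replicate 1 for 20 (33.3%, against 27.1%).

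**Figure D1:**
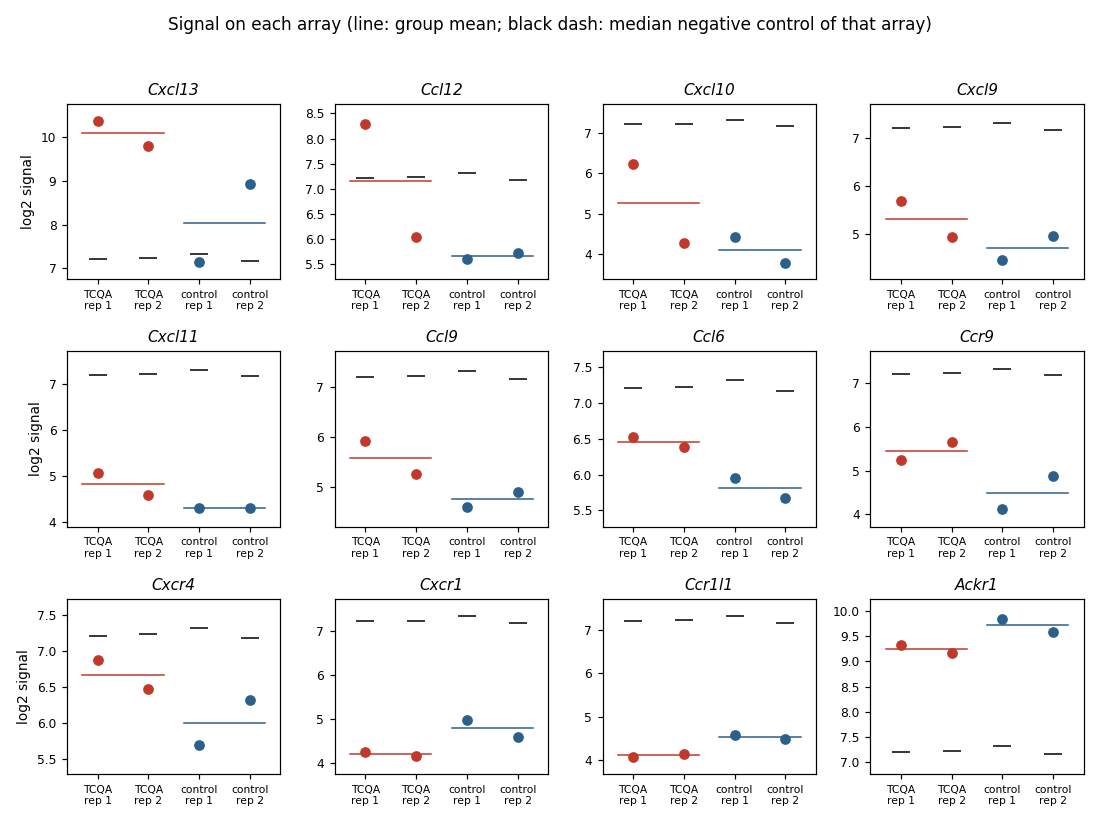
Log2 signal of 12 chemokine and receptor genes on each of the 4 arrays, with TCQA in red and control in blue, a line at each group mean and a black dash at the median negative control of that array. Cxcl13 is at 10.37 and 9.81 on the TCQA arrays and 7.15 and 8.94 on the control arrays, Ccl12 and Cxcl10 stand out on TCQA replicate 1, and Ackr1 is above the dashes on every array.

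Promoter sequences of Cxcl13, Ccl12 and Cxcl10, the ligands with the largest differences, and of Cxcl9, the neighbour of Cxcl10, are shown so that their motifs can be set side by side. They were taken from RefSeq on GRCm38.p6 and run from 250 bases before the annotated start to 50 after it, 5′ to 3′ on the gene's strand. Of the 59 genes, 44 had such a promoter, 48 sequences in all. Capitals mark matches to 3 motifs searched on both strands: the interferon-stimulated response element (GAAA, any 2 bases, GAAA), the NF-kB element, and the TATA box written as TATAAA. The Cxcl13 promoter lies at chr5:95956689-95956988 on the plus strand, that of Cxcl10 at chr5:92348840-92349139 on the minus strand, that of Cxcl9 at chr5:92328030-92328329 on the minus strand and that of Ccl12 at chr11:82101595-82101894 on the plus strand.
Cxcl13: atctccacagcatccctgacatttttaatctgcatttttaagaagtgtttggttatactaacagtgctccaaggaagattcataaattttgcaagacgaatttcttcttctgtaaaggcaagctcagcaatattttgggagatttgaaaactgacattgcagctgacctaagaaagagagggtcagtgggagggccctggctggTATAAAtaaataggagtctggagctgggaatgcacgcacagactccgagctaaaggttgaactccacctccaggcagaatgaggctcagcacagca
Cxcl10: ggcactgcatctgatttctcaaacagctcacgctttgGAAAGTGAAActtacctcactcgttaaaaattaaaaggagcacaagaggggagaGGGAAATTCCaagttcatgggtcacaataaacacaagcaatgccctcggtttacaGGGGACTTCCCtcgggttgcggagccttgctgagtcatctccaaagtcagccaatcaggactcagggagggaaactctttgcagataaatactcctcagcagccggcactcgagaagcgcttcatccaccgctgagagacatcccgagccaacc
Cxcl9: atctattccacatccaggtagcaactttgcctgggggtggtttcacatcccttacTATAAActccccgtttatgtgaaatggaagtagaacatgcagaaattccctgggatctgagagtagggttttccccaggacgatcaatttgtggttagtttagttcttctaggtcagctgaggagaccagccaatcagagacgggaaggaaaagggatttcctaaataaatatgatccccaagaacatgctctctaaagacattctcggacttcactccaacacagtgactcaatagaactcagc
Ccl12: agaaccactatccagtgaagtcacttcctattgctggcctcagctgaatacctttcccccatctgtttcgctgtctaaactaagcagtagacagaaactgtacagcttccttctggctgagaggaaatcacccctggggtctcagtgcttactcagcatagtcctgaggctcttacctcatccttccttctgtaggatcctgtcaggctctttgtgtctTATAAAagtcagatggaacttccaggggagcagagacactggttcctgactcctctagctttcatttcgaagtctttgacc

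Of these 4 promoters, that of Cxcl10 held the interferon motif, at position -213 from the start, and NF-kB matches at -159, -104 and -103, the last 2 overlapping each other. TATAAA began at -46 in Cxcl13, at -195 in Cxcl9 and at -31 in Ccl12. Among the promoters of the chemokine genes, 3 of 48 (6.25%) held the interferon motif, those of Cxcl10, Ccl19 and Cxcl14, against 3.44% of all 32851 promoters of this length. The NF-kB motif was in 12 (25%, against 8.46%) and the TATA box in 14 (29.2%, against 13.6%). The STAT motif TTCNNNGAA was in 4 (8.33%, against 8.3%), none of them printed here, and no match of these motifs overlapped a match of another. The promoters of Cxcl1, Cxcl2 and Cxcl3, which lie in 1 cluster on chromosome 5, held the same NF-kB match, GGGAATTTCC. A match says only that these letters are in the window.

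Cxcl13 is made by stromal cells of lymphoid tissue and signals through Cxcr5. Its log2 signal was 10.37 and 9.81 in TCQA cortex, against 7.15 and 8.94 in control cortex. The TCQA arrays were both above the control arrays, and the control arrays were 1.79 apart, the one case among the 60 of control arrays over 2-fold apart (1.7% of all gene probe sets were). The means were 10.09 ± 0.40 for TCQA and 8.05 ± 1.27 for control arrays (SD, n = 2 each), a log2 difference of 2.04 with a 95% confidence interval of 0.69 to 3.40 (limma adjusted p = 0.787). Leaving out control replicate 1, the low array, gave 1.15, and leaving out control replicate 2 gave 2.94. Leaving out TCQA replicate 1 gave 1.76 and leaving out TCQA replicate 2 gave 2.32, and the unadjusted p was under 0.05 each time an array was left out. Without moderation of the variances it was not, and Cxcl13 no longer met the depositors' criterion. In tissue RNA, fewer cells of a type and less RNA per cell cannot be told apart.

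Control replicate 1 was also the lowest array for 15 of 19 genes of meningeal fibroblasts, against 27.1% of all gene probe sets. Their mean log2 signal was 7.40 and 7.49 with TCQA and 6.79 and 7.32 in control. Of those 19, 18 had a higher mean with TCQA, against 51.1% of all gene probe sets. By limma 4 of the 18 had an unadjusted p under 0.05, against 3.38% higher among all. The median difference was 0.24, and 0.00 without control replicate 1. Ogn, a matrix proteoglycan, was at 8.45 and 8.92 with TCQA, against 6.90 and 7.46 in control. Of the 19, 4 were above the median negative control on all arrays and 11 below it on all. Genes of choroid plexus epithelium had a mean of 6.59 and 7.15 with TCQA and 6.05 and 7.54 in control, 10 of 13 with a lower mean with TCQA, and 6 were below the median negative control on all arrays. Ttr, which defines that epithelium, had 12.23 and 14.97 with TCQA and 7.49 and 16.42 in control, and its lowest and highest arrays were both controls. The part of adjoining tissue in the Cxcl13 difference was not tested. Of the B cell genes 7 of 8 were below the median negative control on every array, Cd79a and Ms4a1 among them, and the mean signal of the 8 spanned 4.75 to 4.78 with TCQA and 4.56 to 4.73 in control. The receptor of Cxcl13, Cxcr5, was also below it on all arrays, at 5.14 and 4.69 with TCQA against 4.90 and 4.66 in control.

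**Figure D2:**
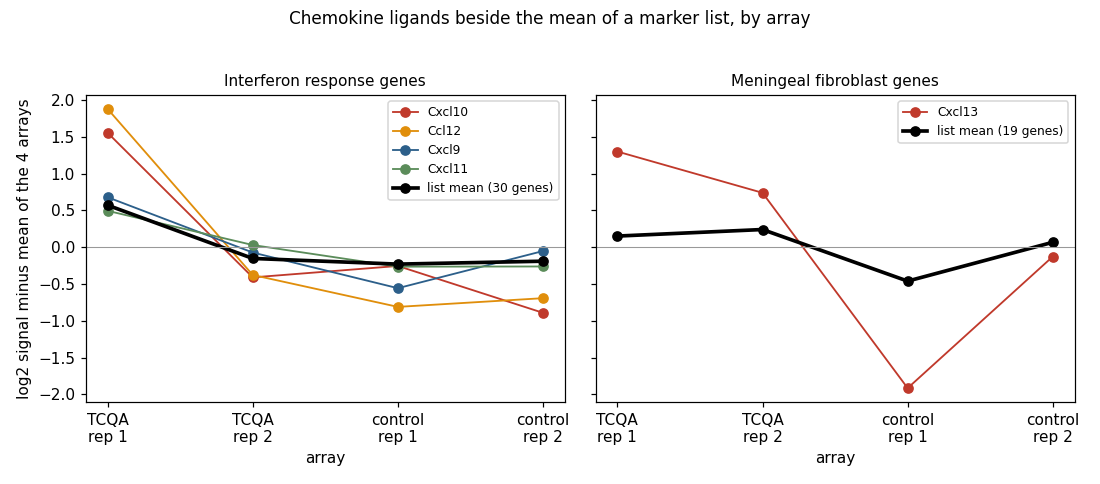
Log2 signal on each array minus the mean of the 4 arrays, for 4 ligands beside the mean of 30 interferon response genes (left) and for Cxcl13 beside the mean of 19 meningeal fibroblast genes (right). The left lines peak on TCQA replicate 1, and on the right both lines are lowest on control replicate 1, Cxcl13 at 7.15 and the list at a mean of 6.79.

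The ligands of Cxcr3, which attract activated T cells and are induced by interferons, are Cxcl9, Cxcl10 and Cxcl11, side by side on chromosome 5. All 3 had a higher mean with TCQA, and all 3 were below the median negative control on every array. Cxcl10 was at 6.24 and 4.27 with TCQA, against 4.43 and 3.79 in control. Cxcl9 was at 5.69 and 4.93 with TCQA, against 4.45 and 4.96 in control. For both genes TCQA replicate 1 was the highest array, and TCQA replicate 2 lay within the range of the control arrays. Cxcl11 was at 5.06 and 4.59 with TCQA, against 4.30 and 4.30 in control, and its groups did not overlap. The log2 differences were 1.15 for Cxcl10 (SE 0.61), 0.61 for Cxcl9 (SE 0.31) and 0.53 for Cxcl11 (SE 0.215), and Cxcl11 had an unadjusted p of 0.0487. Without TCQA replicate 1 the same 3 differences were 0.16, 0.23 and 0.29, and the median of the 3 was 0.23 in place of 0.61. Their receptor Cxcr3 differed by -0.02 (SE 0.18). Art3, which overlaps Cxcl10 and Cxcl11 in the RefSeq annotation, differed by 0.05 (SE 0.21).

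Ccl12 attracts monocytes through Ccr2, and it too was highest on TCQA replicate 1. Its log2 signal was 8.29 and 6.03 with TCQA, against 5.60 and 5.72 in control, and TCQA replicate 1 was the one array above the median negative control. The means were 7.16 ± 1.60 for TCQA and 5.66 ± 0.08 for control arrays (SD, n = 2 each). The mean was 2.84-fold higher with TCQA (limma adjusted p = 0.799), with a 95% confidence interval of -0.10 to 3.11 for the log2 difference, which was 0.37 when TCQA replicate 1 was left out. Ccl12 and Cxcl10 were the 2 genes of the 60 with TCQA arrays over 2-fold apart, as were 2.21% of all gene probe sets. Ccl2, Ccl7 and Ccl8, grouped here with Ccl12 as monocyte attractants and near it on chromosome 11, were dim. Ccl2 had a mean of 6.26 with TCQA and 6.05 in control, and Ccl7 and Ccl8 were at 3.90 to 6.06 over all arrays. They differed by 0.21 (Ccl2), 0.21 (Ccl7) and 0.12 (Ccl8), with standard errors of 0.17 to 0.24, and Ccr2, the receptor that monocytes carry, by -0.13 (SE 0.25).

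Interferon response genes were likewise highest on TCQA replicate 1 in 25 of 30 cases, against 26.4% of all gene probe sets. Their mean log2 signal was 7.24 and 6.51 with TCQA and 6.44 and 6.48 in control. Of the 30, 25 had a higher mean with TCQA, against 51.1% of all gene probe sets. By limma 6 higher and 0 lower ones had an unadjusted p under 0.05, against 3.38% and 2.86% of all. After adjustment 0 of the 30 passed. Their median difference was 0.38, and 0.03 without TCQA replicate 1, and 5 of the 30 were above the median negative control on all arrays. The genes with the smallest p, Ddx58, a sensor of viral RNA, and Gbp2, an interferon-induced GTPase, were high on both TCQA arrays. Ddx58 was at 7.62 and 7.53 with TCQA, against 6.71 and 6.60 in control, and Gbp2 at 6.43 and 6.32 with TCQA, against 5.69 and 5.42 in control. The part of an interferon response in the ligand differences was not tested. Genes induced by NF-kB in acute inflammation, such as Il6 and Tnfaip3, were split between both directions: of 21 measured, 12 were higher and 9 lower, 0 had an unadjusted p under 0.05 by limma, and the median was 0.01. Of these 21, 17 were below the median negative control on all arrays.

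Ccl3, Ccl4, Ccl5, Ccl6 and Ccl9 are the ligands of macrophages and T cells that act on Ccr1 and related receptors. All 5 were below the median negative control on all arrays, and 4 had a higher mean with TCQA. Ccl6, a ligand of rodent myeloid cells, was at 6.53 and 6.39 with TCQA, against 5.96 and 5.67 in control. Its difference was 0.64 (SE 0.19, limma adjusted p = 0.787), and 0.50 to 0.78 with 1 array left out. Ccl9, its neighbour on chromosome 11, was at 5.92 and 5.25 with TCQA, against 4.60 and 4.89 in control. Its difference was 0.84 (SE 0.27, limma adjusted p = 0.787), and 0.50 without TCQA replicate 1 against 1.18 without TCQA replicate 2. For both genes the TCQA arrays were above the control arrays.

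The other 3 had smaller differences. Ccl5 was at 4.01 and 3.49 with TCQA, against 3.33 and 3.39 in control, a difference of 0.39 (SE 0.23) that was 0.13 without TCQA replicate 1 and 0.65 without TCQA replicate 2. Ccl3 differed by 0.25 (SE 0.20) and Ccl4, which overlaps Ccl3 in the annotation, by -0.11 (SE 0.25), and the groups overlapped for each. Ccr1, the receptor of several of these ligands, was at 5.05 and 5.23 with TCQA, against 4.97 and 4.37 in control, a difference of 0.47 (SE 0.25). It was 0.78 with control replicate 1 left out and 0.17 with control replicate 2 left out. Microglia are the resident macrophages of the brain. Of 19 microglia genes, 14 had a higher mean with TCQA, against 51.1% of all gene probe sets, and the median of the 19 was 0.09. By limma 1 of the 14, P2ry13, had an unadjusted p under 0.05, against 3.38% higher among all. The mean log2 signal of the 19 was 8.63 and 8.66 with TCQA and 8.53 and 8.54 in control. Of 12 genes of border-associated macrophages, 10 were below the median negative control on all arrays. In that list 7 had a higher and 5 a lower mean with TCQA, with a median of 0.19 and a range of -0.10 to 0.77. Cbr2, at the top of that range, was the 1 with an unadjusted p under 0.05 by limma, against the same 3.38%. The mean log2 signal of the 12 was 5.71 and 5.81 with TCQA and 5.60 and 5.52 in control.

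**Figure D3:**
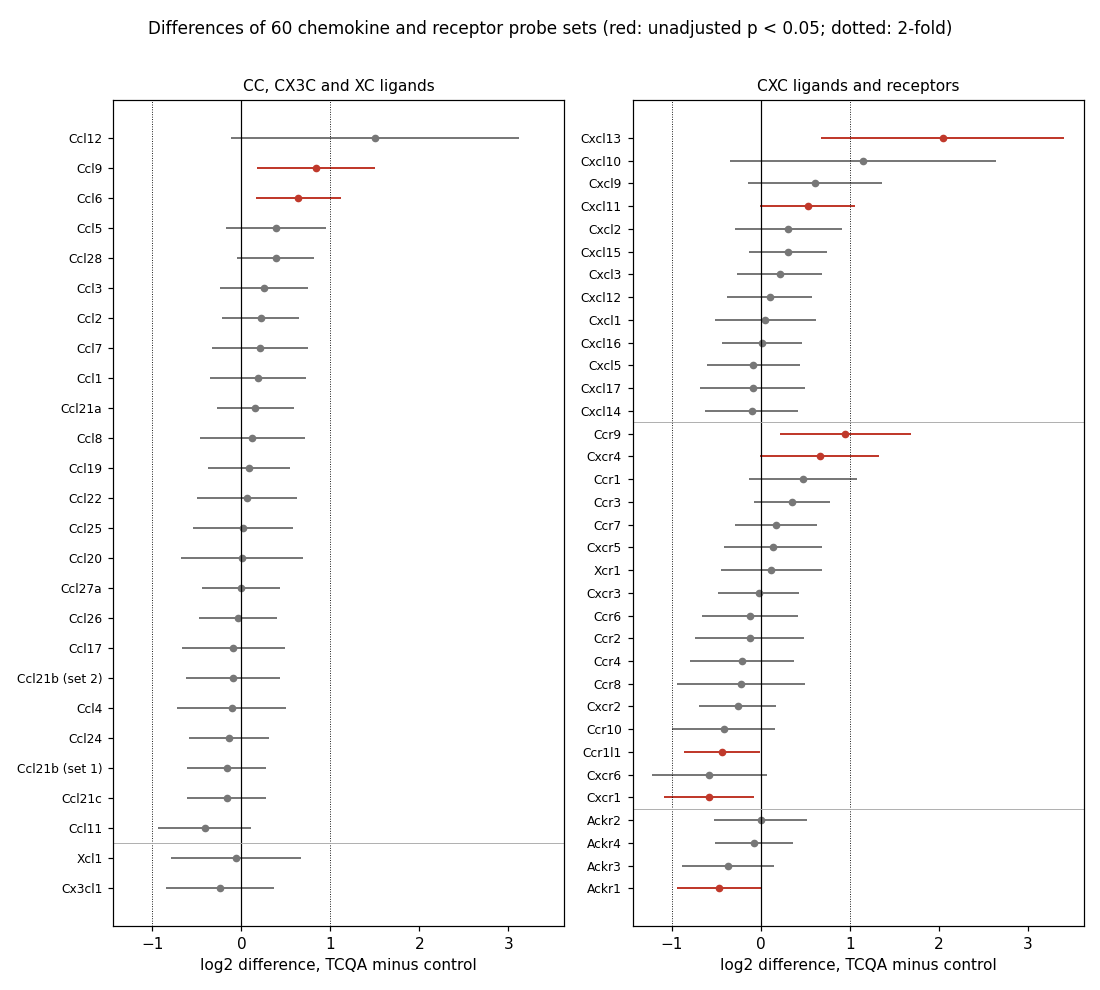
Log2 difference, TCQA minus control, of each of the 60 probe sets with its 95% confidence interval from limma, in order of size within each class, with CC ligands above Cx3cl1 and Xcl1 on the left and CXC ligands above receptors and atypical receptors on the right. The 9 with an unadjusted p under 0.05 are red, and dotted lines mark a 2-fold change, which the points of Cxcl13, Ccl12 and Cxcl10 pass.

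The 12 ligand probe sets above the median negative control on all arrays were mostly for homeostatic ligands, some only just above it. Among them were Ccl21c and a Ccl21b probe set, which held identical values. Of these 12, 0 had an unadjusted p under 0.05 by limma. Among all 10342 gene probe sets above it on all arrays, 254 were higher and 237 lower at this p. Ccl27a, a ligand of skin-homing T cells whose gene overlaps Il11ra1, was at 16.94 and 16.85 with TCQA, against 16.96 and 16.83 in control. Its difference was -0.00 (95% confidence interval -0.43 to 0.42). Cx3cl1, the membrane-bound neuronal ligand of the microglial receptor Cx3cr1, was at 13.95 and 13.36 with TCQA, against 13.99 and 13.79 in control. TCQA replicate 2 was its lowest array, and the difference of -0.24 (SE 0.24) was 0.06 without TCQA replicate 2 and -0.53 without TCQA replicate 1. Of 11 excitatory neuron genes, 9 had a lower mean with TCQA, against 10857 of all 22206 gene probe sets. By limma 3 of the 9 had an unadjusted p under 0.05, against 2.86% lower among all. TCQA replicate 2 was the lowest array for 5522 of all 22206 and for 8 of the 11. Their mean log2 signal was 13.05 and 12.57 with TCQA, against 13.12 and 12.95 in control, and their median difference of -0.26 was -0.48 without TCQA replicate 1 and 0.14 without TCQA replicate 2. The part of neuronal RNA in the Cx3cl1 values was not tested. Cx3cr1 itself differed by 0.18 (SE 0.20). Cxcl12, which guides leukocytes and neural precursors through Cxcr4, was at 9.67 and 9.63 with TCQA, against 9.39 and 9.70 in control, with a 95% confidence interval of -0.36 to 0.57 around a difference of 0.10. Cxcl14, made by epithelia and neurons, was at 9.06 and 9.49 with TCQA, against 9.39 and 9.37 in control, with an interval of -0.61 to 0.41 around -0.10.

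Ccl25, the ligand of Ccr9, was at 8.81 and 8.62 with TCQA, against 8.44 and 8.95 in control, and differed by 0.02 (SE 0.23). Ccl28, a ligand of Ccr10 at mucosal surfaces, was at 8.55 and 8.46 with TCQA, against 8.07 and 8.17 in control. Its groups did not overlap, and its difference of 0.39 (SE 0.17) had an unadjusted p of 0.0673. Ccl17 and Ccl20 were above the median negative control on all arrays as well and differed by -0.09 (SE 0.23) and 0.01 (SE 0.28). Ccl1, Ccl22, Cxcl17 and Xcl1 were below it on all arrays, and their differences lay between -0.09 and 0.19.

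Ccl19 and the Ccl21 genes are the ligands of Ccr7, which brings dendritic cells and T cells into lymph nodes. Ccl19 was at 8.20 and 8.03 with TCQA, against 8.12 and 7.94 in control, a difference of 0.08 (SE 0.18). Ccl21a was at 7.43 and 7.57 with TCQA, against 7.36 and 7.33 in control, a difference of 0.16 (SE 0.17). The probe set of Ccl21c and 1 of those of Ccl21b held identical values on the 4 arrays (-0.16, SE 0.18), so the 60 probe sets hold 59 different sets of values, and these near-identical genes cannot be told apart. The second Ccl21b probe set differed by -0.10 (SE 0.21). Ccr7 was at 7.33 and 7.23 with TCQA, against 6.99 and 7.24 in control. The 5 probe sets of Ccr7 ligands thus differed by -0.16 to 0.16, beside 2.04 for Cxcl13, the other lymphoid homing ligand.

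Neutrophil ligands of Cxcr2 were dim, with Cxcl1, Cxcl2, Cxcl3, Cxcl5 and Cxcl15 all below the median negative control on every array. Their differences lay between -0.08 and 0.31, with 0 of 5 at an unadjusted p under 0.05 by limma. Ccl11, an eosinophil attractant, was at 4.76 and 5.15 with TCQA, against 5.46 and 5.27 in control, a difference of -0.41 (SE 0.21) with no overlap of the groups. Its difference was -0.22 with TCQA replicate 1 left out and -0.61 with TCQA replicate 2 left out. Ccl24 and Ccl26 differed by -0.14 and -0.04. The transmembrane ligand Cxcl16 was at 6.63 and 6.61 with TCQA, against 6.50 and 6.71 in control.

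**Figure D4:**
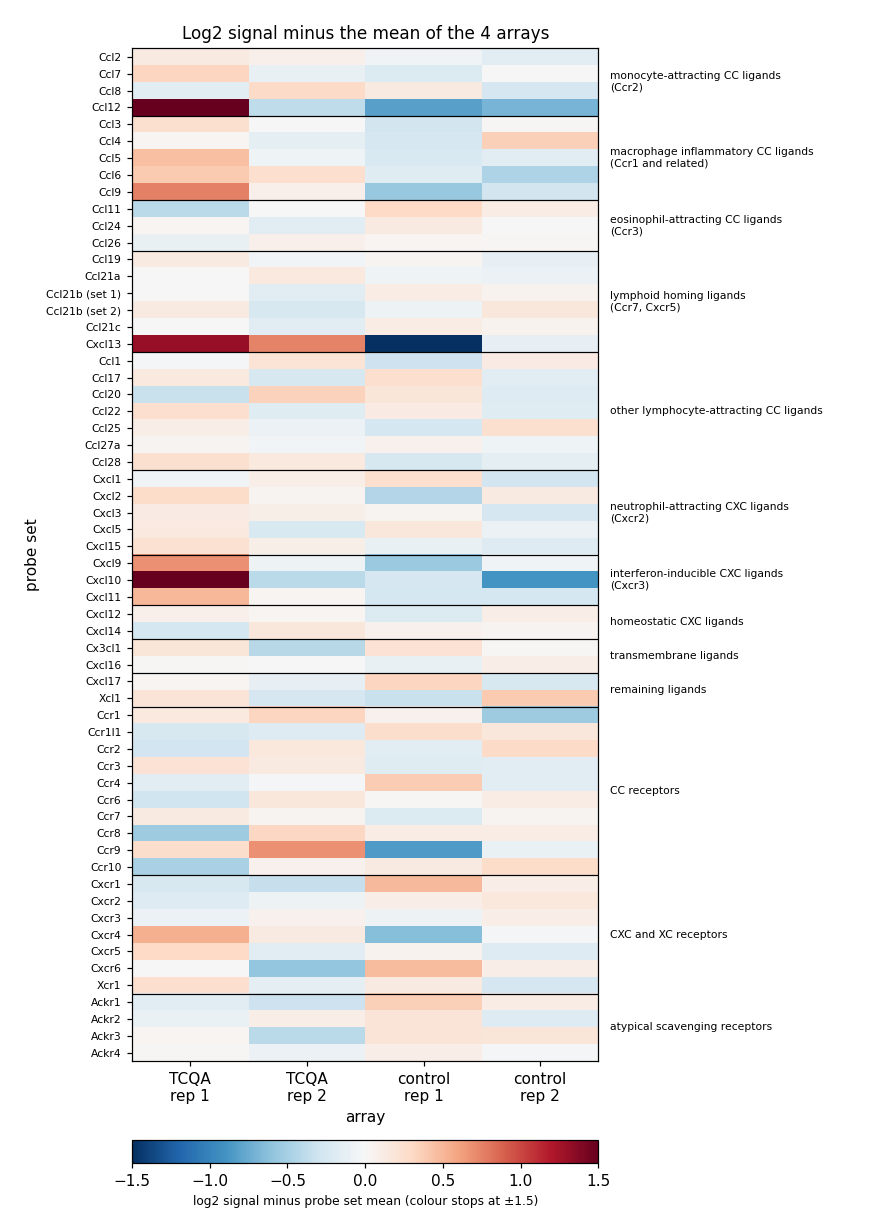
Log2 signal of each of the 60 probe sets on the 4 arrays minus its own mean over them, with rows grouped by the receptor or role of the gene, TCQA arrays on the left and colours limited to ±1.5. The strongest red cells are Ccl12, Cxcl10 and Cxcl13 on TCQA replicate 1 and the strongest blue cell is Cxcl13 on control replicate 1, where its signal was 7.15.

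The 17 signalling receptors were almost all dim, with 16 below the median negative control on all arrays and Ccr7 above it on some. Ccr9, which homes T cells to the gut, was at 5.23 and 5.66 with TCQA, against 4.12 and 4.87 in control. The TCQA arrays were above the control arrays, and the difference of 0.95 (SE 0.30, limma adjusted p = 0.787) was 0.58 without control replicate 1. Cxcr4, the receptor of Cxcl12 on leukocytes, microglia and neural precursors, was at 6.87 and 6.47 with TCQA, against 5.70 and 6.32 in control. Its difference was 0.66 (SE 0.27), and 0.35 without control replicate 1. Cxcr1, a neutrophil receptor, was at 4.25 and 4.16 with TCQA, against 4.99 and 4.59 in control, a difference of -0.58 (SE 0.21). Ccr1l1, a gene related to Ccr1, was at 4.08 and 4.13 with TCQA, against 4.59 and 4.50 in control, a difference of -0.44 (SE 0.17). Both were lower on the TCQA arrays than on the control arrays.

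For the other receptors no unadjusted p was under 0.05. Cxcr6, a chemokine receptor of T cells next to Ccr9 on chromosome 9, was at 4.67 and 4.08 with TCQA, against 5.14 and 4.76 in control, a difference of -0.58 (SE 0.26). It was -0.87 with TCQA replicate 1 left out and -0.28 with TCQA replicate 2 left out. Cxcr2 differed by -0.26 (SE 0.17), Ccr10 by -0.42 (SE 0.23) and Ccr3 by 0.35 (SE 0.17), each with no overlap of the groups. For Ccr10 the difference was -0.14 with TCQA replicate 1 left out and -0.69 with TCQA replicate 2 left out. Ccr4, Ccr6, Ccr8, Cxcr5 and Xcr1 differed by -0.22 to 0.14. Of the T cell genes 10 of 11 were below the median negative control on all arrays, and of the neutrophil and monocyte genes 13 of 14. Their mean log2 signals spanned 5.38 to 5.66 and 4.59 to 4.71 with TCQA, and 5.40 to 5.52 and 4.52 to 4.69 in control.

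The atypical receptors all had a lower mean with TCQA, and control replicate 1 was the highest array for all 4. Ackr1, which carries chemokines across the endothelium of venules, was at 9.32 and 9.16 with TCQA, against 9.83 and 9.58 in control. The groups did not overlap and all arrays were above the median negative control. The means were 9.24 ± 0.11 for TCQA and 9.70 ± 0.18 for control arrays (SD, n = 2 each), which gave a 95% confidence interval of -0.93 to -0.01 around a difference of -0.47 (limma adjusted p = 0.794). Leaving out control replicate 1 gave -0.34 and leaving out control replicate 2 gave -0.59. Cadm3, a neuronal adhesion gene that overlaps Ackr1 in the annotation, was at 13.04 and 12.96 with TCQA, against 12.76 and 12.91 in control. Ackr3, a scavenger of Cxcl12, was at 6.61 and 6.18 with TCQA, against 6.78 and 6.76 in control, a difference of -0.37 (SE 0.21). It was -0.58 with TCQA replicate 1 left out and -0.16 with TCQA replicate 2 left out. Ackr2 and Ackr4 differed by -0.00 (SE 0.21) and -0.08 (SE 0.18).

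Endothelial genes, a list that includes Ackr1, had a higher mean with TCQA in 14 of 19, against 51.1% of all gene probe sets. Their median difference was 0.18. At an unadjusted p under 0.05 by limma, 3 were higher, Slc2a1, Slco1a4 and Ly6c1, and Ackr1 was the 1 that was lower. Of all gene probe sets 3.38% were higher and 2.86% lower at this p. The mean log2 signal of the 19 was 9.34 and 9.43 with TCQA and 9.29 and 9.17 in control. Within the chemokine pathway, genes of the signal chain below the receptors were measured for 32 of 38 listed. Of the 32, 10 were higher and 22 lower, against 51.1% higher among all gene probe sets, with a median of -0.05. By limma 2 had an unadjusted p under 0.05, both higher, against 3.38% higher and 2.86% lower among all. These were Rac1, a small GTPase of cell movement, at 0.43 (SE 0.17), and Ncf1, a subunit of the phagocyte oxidase, at 0.44 (SE 0.18). Of 18 genes that resemble or process chemokines, 11 were higher and 7 lower, with a median of 0.09 and 0 at an unadjusted p under 0.05 by limma. The platelet chemokines Pf4 and Ppbp differed by 0.29 (SE 0.22) and -0.26 (SE 0.19) and the receptor-like Ccrl2 by 0.20 (SE 0.22).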

How the data were processed

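Cortex RNA (cDNA from 100 ng, per the series' design text) was hybridised to Clariom S mouse arrays, 2 per group. The authors deposited log2 signals per probe set, made by SST-RMA in the Transcriptome Analysis Console 4.0.2, per the same text. The build behind the array's annotation: not given in the sources used here. Of 28846 probe sets, 6640 were controls, and 22206 were for genes, 2634 of them without a symbol. The controls were left out of the fit of the genes and fitted on their own.

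Groups came from the sample titles. All 22206 were fitted with limma 3.58.1 (lmFit, eBayes) in R 4.3.3, two-sided, TCQA minus control, with Benjamini-Hochberg adjustment over all, and the procedure was tested on simulated data. The number of arrays limits precision: the median standard error of the 60 differences was 0.22. The 60 genes, their roles and the gene lists were chosen with earlier results of these data known. Genes were named for an unadjusted p under 0.05 by limma or by a list of roles. They were also named for a difference of at least 0.5 if the higher group mean was no dimmer than the median gene (7.14). Ccl12, also on the list of roles, reached this with its TCQA mean of 7.16 and not with its control mean of 5.66. In each gene list up to 4 with the smallest p were named. The other chemokine genes, Ccl28 and Cxcr6 among them, were named to cover all 60, and Il6, Tnfaip3 and Cd79a as examples of their lists. Alternatives were the moderation, centring, quantile normalization, a filter on dim probe sets, leaving out each array, and the replicate number as a block.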

Additional observations from a re-analysis of the deposited data

How the results depend on the processing

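The number of chemokine genes past the depositors' criterion, 1 with all arrays, ranged from 1 to 4 with 1 array left out, and Cxcl13 was among them each time. The number with an unadjusted p under 0.05, 9 with all arrays, ranged from 3 to 12. Of the 9, 3 kept that p without TCQA replicate 1 (Cxcl13, Ccr9 and Cxcr1), 5 without TCQA replicate 2, 2 without control replicate 1 (Cxcl13 and Ccl6) and 5 without control replicate 2. Without TCQA replicate 2 the criterion was also met by Ccl12, Cxcl10 and Ccl9. Over all gene probe sets the criterion was met by 83, and by 160 to 291 with 1 array left out. With a trend in the moderation 2 chemokine genes met the criterion (Cxcl13 and Ccl12). Without moderation 0 met it (limma without eBayes), 3 had an unadjusted p under 0.05 (Ccr1l1, Ccr3 and Ccl28), and 25 of all gene probe sets met the criterion. Among probe sets at or above the median signal, 15 of the 60, 3 had an unadjusted p under 0.05 (Cxcl13, Ackr1 and Ccl28), and 36 of all gene probe sets met the criterion; fewer probe sets were tested.

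Centring and quantile normalization left the criterion count at 1 and 7 genes with an unadjusted p under 0.05. The median difference of the 60 was -0.01 to 0.09 over the alternatives, and 0.02 with 1 probe set per symbol. No alternative gave a chemokine gene past the adjusted threshold (0 of 60 by limma), and no named gene with an unadjusted p under 0.05 changed direction. With the replicate block 3 met the criterion (Cxcl13, Ccl12 and Cxcl10) and 10 had an unadjusted p under 0.05. The labels do not say that the replicate numbers pair the samples. Deviations of arrays with the same number correlated at 0.051 over all gene probe sets and at -0.038 over the 60. With 2 arrays per group the other pairing gives the same values with the opposite sign, so they cannot settle a pairing. The cause of these changes was not tested beyond the number of arrays or probe sets in each fit.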
